A study of Mus musculus with 2 samples.

Results

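Transcript levels of 9 genes of tendon and of the thrombospondin family were read in the gastrocnemius, the large calf muscle, whose tendon tissue runs into the Achilles tendon. The genes were picked by symbol with earlier results of these libraries known: the transcription factors Scx and Mkx, the membrane protein Tnmd, the 5 thrombospondins Thbs1, Thbs2, Thbs3, Thbs4 and Comp, and the secreted protein Angptl7. All 9 symbols matched 1 gene each, out of 55536 annotated genes and 22015 nuclear protein-coding ones. Total RNA was sequenced from 2 male B6CASTF1/J mice 25 days old, the first-generation cross of C57BL/6J and CAST/EiJ, and 300 ng of RNA from each made 1 library. The labels number the tissues as separate males but give both the same donor entry. They form 1 group, so there is no treatment or control to compare, and every comparison below is animal 1 over animal 2, as 2 libraries. The libraries held 35098487 and 37428588 expected counts, and the skeletal actin Acta1 stood at 21950 and 23735 TPM in animals 1 and 2, at the level of a muscle library.

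Tendon is built by fibroblast-like cells, the tenocytes, that lay down aligned type I collagen. Scleraxis (Scx), a basic helix-loop-helix factor, marks tendon progenitors and is needed for force-transmitting tendons in mice. Mohawk (Mkx), a homeobox factor, acts later in collagen fibre growth, and tenomodulin (Tnmd) is a membrane glycoprotein of mature tendon cells. Thrombospondins are secreted calcium-binding glycoproteins. Thbs1 and Thbs2 form trimers, bind CD36 and CD47 and restrain vessel growth, whereas Thbs3, Thbs4 and Comp, the cartilage oligomeric matrix protein, form pentamers and bind collagen. Thbs4 is also known at the muscle-tendon junction. Angptl7 is an angiopoietin-like secreted protein, best known from the cornea and the outflow tissue of the eye.

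Thbs4 was the most abundant of the 9 genes and Angptl7 the one that differed most between the animals. The stretches of 250 bases just upstream of the start sites of Angptl7, Thbs4 and Tnmd, the 3 genes with the highest mean levels, are given here because these genes carry the main values below. They are RefSeq sequences of build GRCm38.p6, and 5 of the 9 genes matched an entry of that table. The Angptl7 stretch is chr4:148500463-148500712 on the minus strand, that of Thbs4 is chr13:92794819-92795068 on the minus strand, and that of Tnmd is chrX:133850758-133851007 on the plus strand. Each is written 5′ to 3′ along its gene, with capitals marking CANNTG, the E-box that basic helix-loop-helix factors recognise.
Angptl7: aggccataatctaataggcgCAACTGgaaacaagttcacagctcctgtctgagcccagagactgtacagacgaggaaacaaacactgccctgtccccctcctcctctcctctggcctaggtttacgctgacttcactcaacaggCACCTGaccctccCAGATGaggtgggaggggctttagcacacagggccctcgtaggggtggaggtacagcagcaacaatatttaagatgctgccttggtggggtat
Thbs4: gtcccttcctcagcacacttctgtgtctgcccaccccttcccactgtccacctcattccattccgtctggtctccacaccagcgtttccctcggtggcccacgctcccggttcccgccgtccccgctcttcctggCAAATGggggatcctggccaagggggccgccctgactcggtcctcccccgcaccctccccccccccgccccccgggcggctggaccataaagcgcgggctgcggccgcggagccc
Tnmd: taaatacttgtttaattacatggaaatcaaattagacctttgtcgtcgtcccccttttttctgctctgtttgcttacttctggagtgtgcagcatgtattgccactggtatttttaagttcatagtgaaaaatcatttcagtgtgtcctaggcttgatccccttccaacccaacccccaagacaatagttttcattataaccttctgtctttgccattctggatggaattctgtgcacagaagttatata
The Angptl7 stretch held 3 E-boxes, at -230 to -225, -106 to -101 and -93 to -88 from the start site. Thbs4 held 1, at -115 to -110, and Tnmd held none in this window. An E-box, which reads as the same motif on both strands, occurred in 66.2% of 32851 promoters of this length, so its presence in Angptl7 and Thbs4 is common. The MCAT motif CATTCC of TEAD factors, searched on both strands, occurred in 12.6% of them and at 2 places in Thbs4, -197 to -192 and -192 to -187, which share 1 base. TATAAA (12.4% of promoters) and AGAACA, the glucocorticoid receptor half-site (16.1%), were searched on both strands and matched none of the 3 stretches. The GC content was 54.4% for Angptl7, 70.8% for Thbs4 and 38.4% for Tnmd, against a median of 52.4% over all promoters. The last 28 bases of the Tnmd stretch lie in the first exon of the GENCODE M21 model. A match describes these letters and not a bound site.

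All 9 genes passed a level of 1 TPM in both animals. TPM is the deposited level as a share of all transcripts, corrected for transcript length, so it can be compared between genes. The mean over the animals ran from 2.63 TPM for Mkx to 47.3 TPM for Thbs4, with a median of 5.99, against a median of 6.52 over the 10230 nuclear protein-coding genes with a mean of 1 TPM or more. In bulk tissue fewer cells of a type and less RNA per cell cannot be told apart.

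Of the transcription factors, Scx stood at 5.34 TPM in animal 1 and 6.63 in animal 2 (5.99 ± 0.912, SD, n = 2), from 158 and 208 expected counts. Mkx had 2.82 and 2.43 TPM (2.63 ± 0.276, SD, n = 2) from 106 and 100 counts. By the TPM of the whole gene Scx was above Mkx in each animal, 1.89-fold in animal 1 and 2.73-fold in animal 2. The main coding transcripts alone stood at 4.86 and 6.01 TPM (Scx-201) and at 0.82 and 0.76 TPM (Mkx-201) in animals 1 and 2. Scx alone of the 9 genes had its lower value in animal 1. The Scx gene (chromosome 15, 76457452 to 76459458, plus strand) lies wholly inside Bop1, a ribosome biogenesis gene on the other strand at 6.67 and 8.45 TPM in animals 1 and 2. The exons of Scx and Bop1 share 0 bases. Both Scx and Bop1 were lower in animal 1, with log2 ratios of -0.21 and -0.19, and whether reads of one were counted for the other was not tested.

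Tnmd, on chromosome X (133850980 to 133865577, plus strand), had 17.6 TPM in animal 1 and 14.5 in animal 2 (16.0 ± 2.18, SD, n = 2). Its SD was 13.6% of its mean, and its values lay above those of Scx and Mkx in each animal. Tnmd exceeded Scx 3.29-fold in animal 1 and 2.19-fold in animal 2. It ranked 2247 and 2867 among the 22015 nuclear protein-coding genes.

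Among thrombospondins, Thbs4 (chromosome 13, 92751590 to 92794818, minus strand) led with 50.9 TPM in animal 1 and 43.8 in animal 2 (47.3 ± 5.02, SD, n = 2), from 4515 and 4114 counts. It ranked 776 and 981 among nuclear protein-coding genes. Thbs4 took 68.9% ± 1.75 (SD, n = 2) of the family's TPM, which over its 5 members came to 75.1 in animal 1 and 62.4 in animal 2. Comp took 10.9% ± 2.38, Thbs1 7.33% ± 0.365, Thbs2 6.40% ± 0.285 and Thbs3 6.40% ± 0.717. The pentamer-forming Thbs3, Thbs4 and Comp together took 86.2% in animal 1 and 86.3% in animal 2, so the split between the pentamer and trimer subgroups moved by less between the animals than the share of any single member did.

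Comp (chromosome 8, 70373558 to 70382066, plus strand) had 9.47 TPM in animal 1 and 5.76 in animal 2 (7.62 ± 2.62, SD, n = 2). Thbs4 was 5.37-fold above Comp in animal 1 and 7.60-fold in animal 2. The trimer-forming Thbs1 (chromosome 2, 118111876 to 118127133) had 5.70 and 4.41 TPM (5.06 ± 0.912), and Thbs2 (chromosome 17, 14665500 to 14694235) had 4.66 and 4.12 TPM (4.39 ± 0.382). These near relatives differed by 1.22-fold in animal 1 and 1.07-fold in animal 2, and their ranges overlap. Thbs3 (chromosome 3, 89215180 to 89226837) had 4.43 and 4.31 TPM (4.37 ± 0.0849), the closest agreement between the animals of the 9 genes on this scale.

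Angptl7 (chromosome 4, 148495183 to 148500460, minus strand) had 26.7 TPM in animal 1 and 8.89 in animal 2 (17.8 ± 12.6, SD, n = 2). Its SD was 70.8% of its mean, against 1.94% to 34.5% for the other 8 genes. Angptl7 lay above Tnmd in animal 1 (1.52-fold) and below it in animal 2 (0.614-fold), so its second place by mean level rests on animal 1. The gene lies wholly inside Mtor, the growth-regulating kinase encoded on the other strand, and the exons of Angptl7 and Mtor share 0 bases. Mtor itself was level, at 11.7 and 12.0 TPM in animals 1 and 2.

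Ordered by mean level, the genes ran Thbs4, Angptl7, Tnmd, Comp, Scx, Thbs1, Thbs2, Thbs3 and Mkx. Thbs4 at the top and Mkx at the bottom did not overlap their neighbours in the range of the 2 animals, nor did Tnmd and Comp. The remaining neighbours overlapped: Angptl7 with Tnmd, and the genes from Comp down to Thbs3 each with the next. The second quantification, a separate set of transcript estimates deposited for the same libraries, gave the same order of means. It set most genes higher, by a median of 1.43 times over the 10230 genes (quartiles 1.32 and 1.62). Tnmd was raised by 1.54 times, Angptl7 by 1.43, Thbs4 by 1.35 and Mkx by 1.03.

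**Figure D1:**
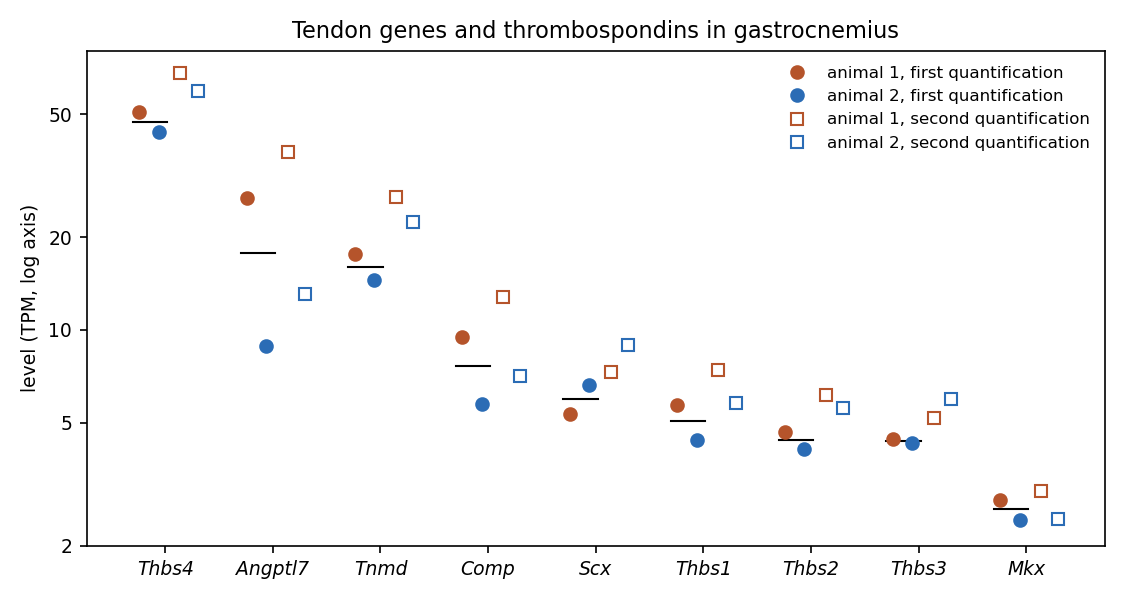
Level of each gene in TPM on a log axis, with filled circles for the first quantification, open squares for the second, and a bar at the mean of the 2 animals in the first. Thbs4 lies above the other 8 genes in each animal, and the Angptl7 points, at 26.7 and 8.89 TPM in the first quantification, are the widest apart.

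Between the animals, 8 of the 9 genes were higher in animal 1 and 1, Scx, was lower. The ratio is of expected counts scaled by TMM, given as log2 of animal 1 over animal 2, and with 1 library per animal it has no replicate check and no p-value. The interval beside it is an exact 95% binomial one that covers counting error only. Angptl7 had 1585 counts in animal 1 and 559 in animal 2, a log2 ratio of 1.69 (1.55 to 1.83) or 3.22-fold. Comp had 617 and 370 counts and a log2 ratio of 0.92 (0.73 to 1.11), or 1.89-fold. These 2 genes were the only ones of the 9 past 1.5-fold, both higher in animal 1, where 1.83% of the 10230 nuclear protein-coding genes were past it in that direction and 1.45% in the other. Past 2-fold there was 1, Angptl7, against 0.508% of those genes. The members were chosen with such ratios in view, so nothing is read from these counts.

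The other 6 genes higher in animal 1 lay between 1.20-fold and 1.32-fold. Thbs1 had a log2 ratio of 0.40 (0.26 to 0.54), Tnmd 0.38 (0.22 to 0.55) and Thbs3 0.36 (0.12 to 0.61). Thbs4, with the most counts, had 0.32 and the narrowest interval, 0.26 to 0.38. Thbs2 had 0.26 (0.11 to 0.41) and Mkx 0.27 (-0.14 to 0.68). Scx had -0.21 (-0.52 to 0.09). The intervals of Mkx and Scx include 0. As they cover counting error only, no interval here can tell whether a difference would recur in other animals. The median over the 9 genes was 0.36, against -0.02 over the 10230 genes. Of those genes, 87.9% had a smaller absolute ratio than Thbs4 and 91.4% a smaller one than Tnmd, and for Comp and Angptl7 these shares were 98.9% and 99.8%. As the members were chosen with such ratios in view, nothing is read from this median or these shares.

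**Figure D2:**
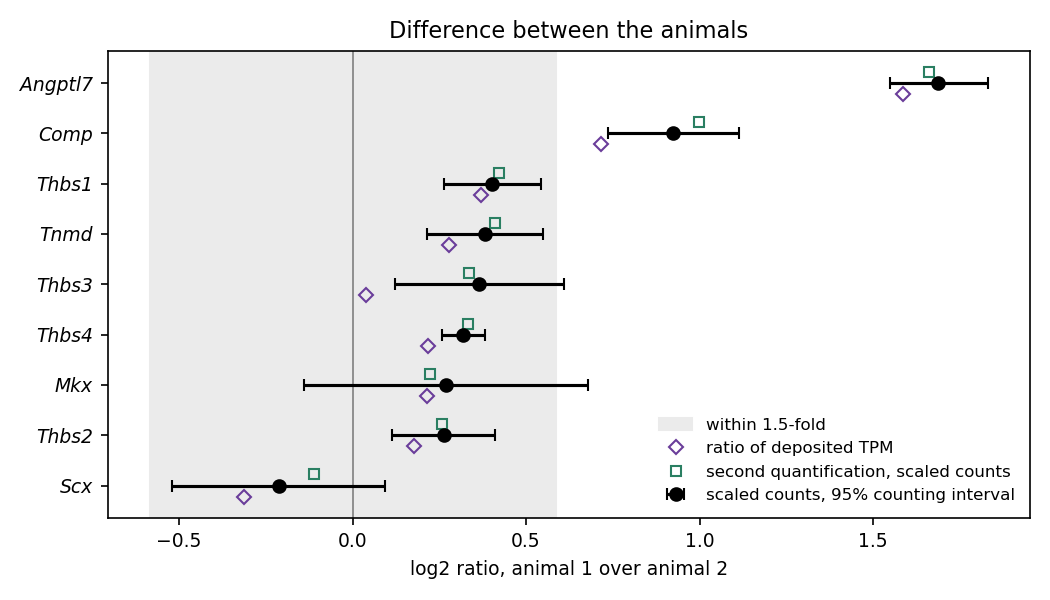
Log2 ratio of animal 1 over animal 2 for each gene, from scaled counts with the 95% counting interval (circles), from deposited TPM (diamonds) and from the second quantification (squares), over a grey band of 1.5-fold. Angptl7 at 1.69 and Comp at 0.92 lie outside the band by all 3 measures, and Scx lies below 0 by all 3.

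By counts, 1 transcript took nearly all of 6 of the 9 genes and a smaller share of Scx, Thbs3 and Mkx. Tnmd and Angptl7 each have 1 annotated transcript, of 1353 and 2157 bases. Comp-201 took 99.4% of the Comp counts in animal 1 and 97.9% in animal 2. For Thbs4, the protein-coding Thbs4-201, with 22 exons, took 99.9% of the counts in each animal. Thbs1-201 and Thbs2-201, also with 22 exons each, took 99.5% and 99.2% of the counts of their genes in animal 1 and 100% and 99.8% in animal 2. Scx-201, with 2 exons, took 83.0% and 82.6%, and the rest went to Scx-202, a transcript that retains the intron.

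For Mkx the counts and the TPM gave different pictures. The full-length Mkx-201 (3650 bases) took 79.4% of the Mkx counts in animal 1 and 82.8% in animal 2, but 29.1% and 31.4% of the TPM, so that the coding messenger RNA stood at 0.82 and 0.76 TPM. Mkx-203, a retained-intron fragment of 425 bases, took 56.9% and 65.2% of the TPM from 15.1 and 15.8 counts. The second quantification gave Mkx-203 a share of 0% and placed 44.6% and 53.8% on the short coding Mkx-202 instead, which had 0 counts in the first. The coding Mkx-201 alone stood at 1.14 TPM in animal 1 and 1.12 in animal 2 there.

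Thbs3 showed the same at a smaller scale. Thbs3-201, the main coding transcript, took 89.1% of the counts in animal 1 and 83.8% in animal 2, but 67.2% and 54.1% of the TPM. Short transcripts such as Thbs3-205, of 455 bases, took 14.2% and 19.4% from 6.48 and 9.10 counts. The TPM of Thbs3-201 alone was 2.98 in animal 1 and 2.33 in animal 2, a log2 ratio of 0.35, whereas the TPM of the whole gene gave 0.040. In the second quantification the gene was lower in animal 1 by TPM (5.17, against 5.97 in animal 2) and higher by scaled counts (log2 ratio 0.34). The Thbs3 gene also lies wholly inside the span of Mtx1, a mitochondrial import gene on the other strand with 12.8 TPM in animal 1 and 16.5 in animal 2, and 6.59% of its exon bases overlap exons of Mtx1.

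**Figure D3:**
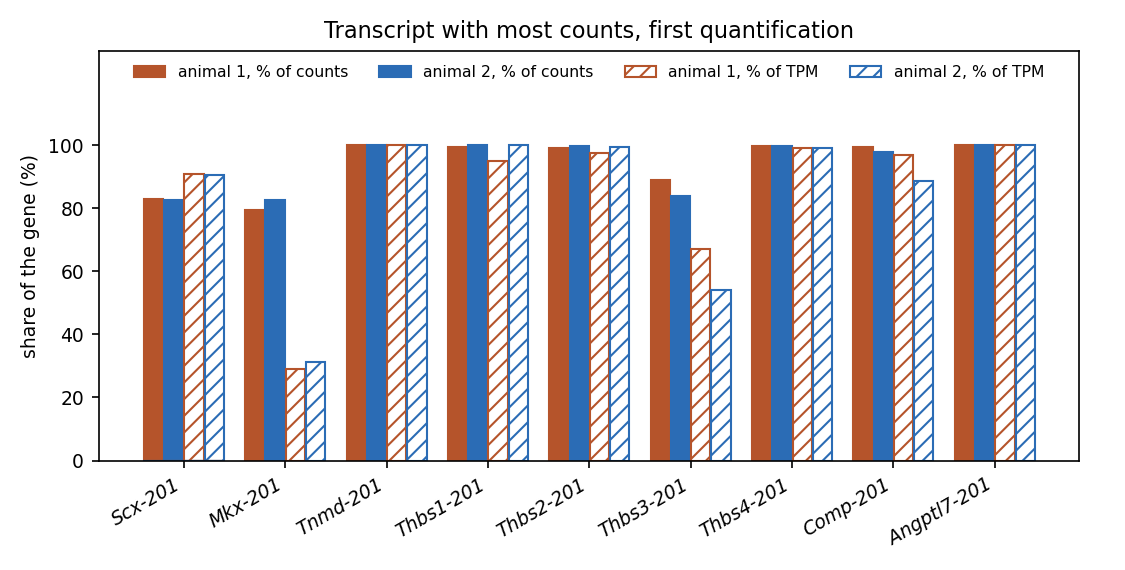
Share in percent of the transcript with most counts of each gene, by counts (filled bars) and by TPM (hatched bars), in animals 1 and 2 of the first quantification. By counts each of these transcripts took 79.4% or more of its gene, and the hatched bars fall far below the filled ones for Mkx-201, at 79.4% of counts and 29.1% of TPM in animal 1, and for Thbs3-201, at 89.1% and 67.2%.

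Other genes of tendon matrix, listed with the earlier results known and compared in the same 2 libraries, were mostly higher in animal 1. Of 38 listed matrix genes, 37 had a mean of 1 TPM or more, 34 of these had a ratio above 0 and 11 were past 1.5-fold, all 11 higher in animal 1, where the background was 1.83%. The median log2 ratio of the 37 was 0.30, against -0.02 over the 10230 genes. Col1a1, the main chain of type I collagen, had 864 TPM in animal 1 and 469 in animal 2 (log2 ratio 0.99), and Col1a2 had 508 and 316 TPM (0.89). Sparc, a collagen-binding matrix protein, had 395 and 317 TPM (0.42). Chondroadherin, Chad, a leucine-rich protein of cartilage and tendon, showed the widest ratio of the list, with 15.4 TPM in animal 1 and 6.85 in animal 2 (1.26). All 13 collagen chains of the list had a ratio above 0 and 4 of them were past 1.5-fold. By the ratio of TPM, Col3a1, Col5a1 and Col5a3 lay just below 0 (-0.003, -0.005 and -0.012, named after their values were seen). By that measure Cilp (-0.34), Ptx4 (-0.28), Bgn (-0.17) and Fbn1 (-0.12) also lay below 0, named after their values were seen. So did Eln (-0.061), Mfap5 (-0.057) and Tnxb (-0.012), named likewise, and Lum lay at 0. The median of the 10230 genes was -0.12 by that measure. Of the 37 genes 9 were past 1.5-fold by it, all higher in animal 1. By scaled counts Cilp, at 8.87 and 11.3 TPM (-0.24), was the lowest of the list.

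Regulators of tendon cells had ratios on both sides of 0. Of 33 listed regulators, 32 matched, 24 had a mean of 1 TPM or more, and 13 of these had a ratio above 0. Their median was 0.01, against -0.02 over the 10230 genes. The SMAD proteins that carry TGF-beta signals led by level, Smad3 at 25.6 TPM in animal 1 and 26.4 in animal 2 and Smad4 at 20.7 and 21.2. Past 1.5-fold, 2 of the 24 were higher in animal 1, where the background was 1.83%, Egr1 and Tbx3 (log2 ratios 0.76 and 0.86, named after their values were seen). Etv4, a target of FGF signalling with 1.55 and 2.23 TPM, was the 1 lower (-0.96), where the background was 1.45%. By the ratio of TPM Etv4 was within 1.5-fold (-0.52) and Etv5 (-0.61, named after its values were seen) was the 1 lower.

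Receptors and binding partners of thrombospondins had ratios near 0. Of 22 listed, 20 had a mean of 1 TPM or more, with a median log2 ratio of 0.00. Past 1.5-fold there were 0 in either direction, where the background was 1.83% higher and 1.45% lower in animal 1. With so few genes, 0 is near that background. Cacna2d1, the calcium channel subunit that binds thrombospondins, had 121 and 122 TPM in animals 1 and 2, and the receptor Cd36 had 95.6 and 101 TPM. Itga6, an integrin chain with 4.52 and 5.73 TPM, had the widest ratio (-0.31). Among 17 matched genes of protein folding in the endoplasmic reticulum, where Thbs4 is known to bind Atf6, 0 were past 1.5-fold, also near that background. Hspa5 led these genes at 66.6 and 86.7 TPM (-0.28). The widest of these was Ddit3, a stress-induced factor, at 3.89 and 6.01 TPM (-0.57), and it was past 1.5-fold by the ratio of TPM and in the second quantification (-0.63 in each).

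Comp binds matrilins and type IX collagen in cartilage. Of 17 listed Comp partners and proteases that cut it, 5 had a mean of 1 TPM or more, led by the granulin precursor Grn at 10.9 TPM in animal 1 and 11.2 in animal 2. Matn4 (1.31 and 0.91 TPM, log2 ratio 0.61, named after its values were seen) was the 1 of the 5 past 1.5-fold, against a background of 1.83%, and was within it by the ratio of TPM (0.53) and in the second quantification (0.38). Matn1 and Mmp20 had 0 counts in both animals, which allows up to 3 counts in each. Of 11 matched angiopoietin-like genes, angiopoietins and their receptors, 7 were detected, led by Angptl2 at 23.9 and 26.9 TPM (log2 ratio -0.01). Angptl4, a lipase inhibitor raised by fasting, was the 1 of these 7 past 1.5-fold, where the background was 1.83%, with 5.32 TPM in animal 1 and 3.16 in animal 2 (0.91). Of the proteins that share the BRICHOS domain with Tnmd, Itm2b and Itm2a led with 98.8 and 96.2 TPM in animal 1 and 95.4 and 88.3 in animal 2, and Cnmd, its closest relative, stayed under 1 TPM.

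**Figure D4:**
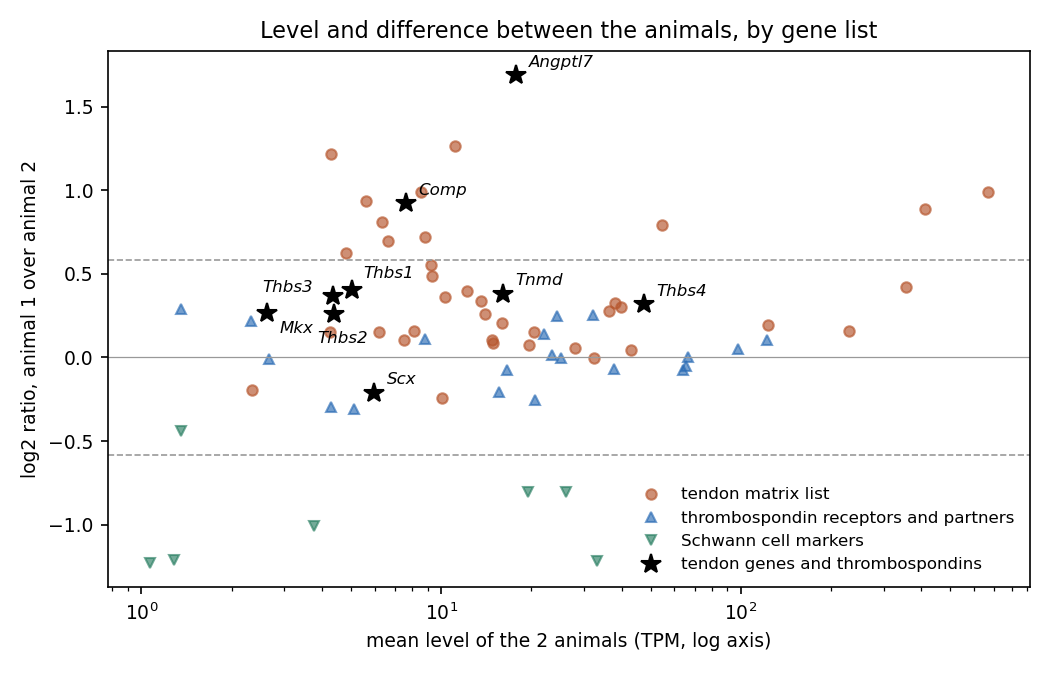
Mean level in TPM (log axis) against the log2 ratio of animal 1 over animal 2 for the 9 genes (stars), the tendon matrix list, the thrombospondin receptors and partners and the Schwann cell markers with a mean of 1 TPM or more, with dashed lines at 1.5-fold. Of the matrix genes 34 of 37 lie above 0, as do 8 of the 9 stars (Scx lies below it), the receptors lie between the dashed lines, and 6 of the 7 Schwann cell markers lie below the lower one.

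Markers of other cells were read beside these ratios, and their part in them was not tested. Of 10 cartilage markers 1, Col2a1, passed 1 TPM in both animals, at 3.91 TPM in animal 1 and 2.45 in animal 2 (log2 ratio 0.96). Among the markers under 1 TPM with any counts, Sox9 alone had a ratio below 0, at -0.39 (75 and 112 counts). The rest of these lay above 0, up to Cnmd at 1.72 (30 and 10 counts). The 10 summed to 6.25 and 4.62 TPM, and Matn1 and Snorc had 0 counts. Bone markers summed to 6.89 and 6.61 TPM, with Bglap, Ibsp and Sp7 at 0 counts, and skin markers to 1.86 and 2.17 TPM, with Krt5 and Krt14 at 0 counts. Schwann cell markers ran the other way, summing to 57.0 TPM in animal 1 and 116 in animal 2, with 6 of 7 past 1.5-fold lower, where the background was 1.45%. Platelets carry Thbs1, and their markers summed to 5.18 and 5.16 TPM, with Ppbp at 4 counts in each animal. Markers of fibro-adipogenic cells summed to 127 and 134 TPM, those of endothelium to 113 and 129, and those of mural cells to 115 and 134. In the endothelial and mural lists 1 of 6 each was past 1.5-fold lower in animal 1, where the background was 1.45%. These were Kdr (4.31 and 7.59 TPM, log2 ratio -0.77) and Kcnj8 (1.77 and 3.45 TPM, -0.85). Of the 9 fibro-adipogenic markers 0 were past 1.5-fold in either direction, near the background of 1.83% higher and 1.45% lower. Nerve sheath fibroblast markers summed to 8.00 and 9.92 TPM, and 4 of the 8 had a mean of 1 TPM or more. Of these 4, Itgb4 (0.74 and 1.65 TPM) was the 1 past 1.5-fold, lower in animal 1, where the background was 1.45%. Kera, a proteoglycan of cornea and tendon, had 10.6 and 8.10 TPM, and the corneal keratin Krt12 had 0 counts.

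Of 16 listed glucocorticoid response genes, 9 were past 1.5-fold, all 9 higher in animal 1, where the background was 1.83%. The other 7 were within 1.5-fold and 14 of the 16 had a ratio above 0. The median log2 ratio was 0.66, against -0.02 over the 10230 genes. Pdk4, which restrains glucose oxidation, led at 612 TPM in animal 1 and 578 in animal 2 (0.21). The metallothionein Mt2, with the widest ratio of the list, had 69.9 and 24.1 TPM (1.65). Sgk1 (-0.25) and Dusp1 (-0.10), named after their values were seen, were below 0. Any link of these genes to Angptl7 was not tested. That list was drawn with the earlier results known, and its genes were compared in the same 2 libraries.

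By distance over the 2 animals in log2 TPM, the nearest of the 10230 genes to Angptl7 were Cep85l, at 25.8 and 12.0 TPM in animals 1 and 2 (distance 0.44), Arrdc3, at 21.6 and 11.4 TPM (0.48), and Arrdc2, at 19.2 and 8.47 TPM (0.48). Those nearest to Tnmd were Obsl1, Eif2s3y and Sgms1, at distances of 0.03 to 0.04. Those nearest to Thbs4 were Acyp2 (0.02), Arpp19 and Slc38a2 (0.09 each). Angptl7 thus had no neighbour as near as those of Tnmd and Thbs4, and with 2 samples such nearness reflects level as much as pattern.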

How the data were processed

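Expected counts, TPM and the percent of a gene taken by each transcript were deposited by the authors in 1 gene and 1 transcript table per library, with columns as RSEM writes them, per the file headers. The other transcript table gives estimated counts with TPM under kallisto's column names, per the file headers. Build mm10 and GENCODE M21 are named in the deposited descriptions. How strand was used, the tools and their versions: not given in the sources used here. The deposited posterior mean TPM served as an alternative. The deposited bounds of TPM, taken as a signal of unstated level, and FPKM were not used in the text. As a share, TPM falls for all other genes where a few short RNAs are abundant. The libraries held 35098487 and 37428588 expected counts, and a count of 0 allows 3 counts, or 0.0855 and 0.0802 CPM.

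Expected counts were rounded and scaled by TMM (edgeR 4.0.16, R 4.3.3) with a prior count of 0.5. Exact 95% binomial intervals cover counting error only, as reads lacking molecular identifiers need not be independent molecules. With 2 animals in 1 group there is no test. A gene was called past 1.5-fold, among nuclear protein-coding genes at a mean of 1 TPM or more, and detected at 1 TPM or more in both animals. The ratio was tested on simulated data. Alternatives were the ratio of TPM, DESeq2 1.42.0 size factors, spike-in totals, the second quantification, other filters, a prior count of 2 and 2-fold.

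The members, the 18 lists (223 symbols) and the alternatives were chosen with earlier results of these data known. Besides the members, up to 4 genes of a list are named, out of its 3 highest and the detected one with the widest ratio, together with markers at 0 counts, genes that overlap a member and genes nearest to one. Other names are marked as chosen after their values were seen. Promoters are from RefSeq, build GRCm38.p6.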

Additional observations from a re-analysis of the deposited data

How the results depend on the processing

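In the second quantification the mean levels moved by more than the SD of the animals for Scx (8.12 TPM), Tnmd (24.6), Thbs1 (6.61), Thbs2 (5.87), Thbs3 (5.57) and Thbs4 (63.7), and the posterior mean moved Thbs3 to 5.64 TPM. By the ratio of TPM the log2 ratio of Thbs3 was 0.040, that of Thbs4 0.22 and that of Comp 0.72, each outside its counting interval. That scaling shifts the median of the 10230 genes to -0.12, from -0.02, and the share of the main coding transcript moves Thbs3 and Comp further. Comp-201 took 96.9% of the Comp TPM in animal 1 and 88.8% in animal 2, and alone had a log2 ratio of TPM of 0.85. The short Comp-203 took 9.98% of the TPM in animal 2 from 6.95 counts. No gene of the 9 changed direction under the ratio of TPM, DESeq2 size factors, spike-in totals, the second quantification (scaled counts) or a prior count of 2. Angptl7 and Comp stayed past 1.5-fold under each of these, and at 2-fold 1, Angptl7, was left. Over all genes tested, 187 were higher and 148 lower in animal 1 past 1.5-fold. These counts were 170 and 408 by the ratio of TPM, 52 and 35 at 2-fold, 78 and 33 at a mean of 5 TPM or more, and 1581 and 1646 with no filter on TPM. At 2-fold, 2 of 37 tendon matrix genes, 0 of 24 tendon regulators and 5 of 16 glucocorticoid response genes were higher in animal 1. The background there was 0.508%. No paired analysis was possible because the labels give 1 group. Mkx and Scx, at 100 to 208 counts, are limited by depth, and all 9 genes by having 1 library per animal.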
